A study of Populus davidiana with 6 samples.

Results

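A total of 568 assembled loci outside the annotated genes of Populus davidiana, an aspen, were examined in leaf RNA, out of 40537 loci listed for the study. Each had no annotated transcript and consisted only of transcripts that the authors' assembly added. Each spanned at least 300 bases and reached a summed level of at least 1 FPKM, that is, fragments scaled to transcript length in kilobases and to 1e6 fragments of the library, in at least 3 of the 6 libraries. The files held 1762 loci without an annotated transcript. Of these, 798 spanned at least 300 bases, and 230 of the 798 did not reach 1 FPKM in 3 libraries. Another 512 reached that level but were shorter than 300 bases. Since the level was part of the choice, a locus high in a single group could enter through that group alone: 47 members reached 1 FPKM in all 3 air-dried libraries and in under 3 control libraries, and 77 the other way round.

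The samples were leaves of the cultivar Palgong2, which the labels call tolerant of drought, grown by internode culture on a sugar-containing gelled medium and used at about 6 weeks of age. The 3 control libraries, given here as replicates 1, 2 and 3, came from plants for which the labels give no further handling. The 3 air-dried libraries came from plants of the same cultivar and age that had been taken out of the medium, rinsed and kept in air for some 10 minutes, so the treatment holds the uprooting and rinsing as well as the drying. Libraries were made from poly(A) RNA and sequenced as paired ends. The labels do not say whether the replicates came from separate plants or cultures, so a p-value here reflects the spread between libraries, which may be technical. In whole leaves, fewer cells of a type and less RNA per cell cannot be told apart.

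A transcript assembler joins overlapping read alignments into transcript models and marks those that match no annotated gene. Such models can come from genes missing from an annotation, long non-coding RNAs, transcribed transposable elements, unannotated ends of known transcripts, or introns retained in precursor RNA. In plants, intergenic and antisense transcripts are a common part of poly(A) RNA, and some respond to water loss. No gene names come with the loci, and the sources used here give neither the genome build nor the annotation's version. Loci are therefore given by position in the authors' coordinates, and no function is assigned to them.

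Air-dried replicate 1 differed from the other libraries at short loci, annotated ones included. Median levels over the 568 members were 4.23, 3.30 and 4.09 FPKM in control replicates 1 to 3 and 5.53, 3.40 and 3.59 FPKM in air-dried replicates 1 to 3. The median member was higher in air-dried replicate 1 than in the mean of the other air-dried libraries by 0.464 on the log2(FPKM + 1) scale, against 0.0850 over the 21357 tested annotated loci. That library was the highest of the 6 at 47.4% of members and at 37.1% of annotated loci. The difference was 1.06 for members of 300 to 400 bases, 0.371 for those over 500 to 1000 bases and 0.272 for those over 2000 bases. Annotated loci of 300 to 400 bases had 0.708, with that library the highest at 52.6%, and those over 400 to 500 bases 0.468. At these short spans the difference was thus not limited to members. At longer spans it was much smaller at annotated loci than at members, with 0.0283 over 500 to 1000 bases and 0.0903 over 2000 bases. Because of the difference in this library, results are given below with and without it.

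Members were short, and lower than annotated loci as a whole. The median span was 613 bases, with quartiles at 398 and 1143 bases and a range of 301 to 15061, whereas tested annotated loci had a median span of 3667 bases. The median of the mean level was 4.22 FPKM, compared with 11.7 FPKM for annotated loci. A mean under 5 FPKM was found for 55.8% of members and for 25.6% of annotated loci. Members of 300 to 400 bases, however, had a median level of 5.08 FPKM with 49.7% under 5 FPKM, and annotated loci of that span 4.45 FPKM with 53.4%. At over 400 to 500 bases the medians were 3.12 and 4.39 FPKM. At the other end, 26 members (4.58%) averaged over 100 FPKM, close to the 5.76% of annotated loci. All 6 libraries held at least 1 FPKM at 373 members, exactly 3 did at 43, and 57 members were listed at 0 in at least 1 library. A single transcript made up 461 members, and 107 had several, up to 11.

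Just inside the span limit stood 4 members of 301 bases, and just outside it 3 loci of 299 bases and 1 of 298. At the level limit, the third highest library held 1.002, 1.015, 1.018 and 1.054 FPKM at the nearest members, and 0.9997, 0.9966, 0.9895 and 0.9848 FPKM at the nearest loci left out. At these last 4 loci the lowest library held between 0 and 0.865 FPKM and the highest between 1.455 and 3.66 FPKM. One of the 3 members that passed through a single group rose and is described below. The others passed through the control group. At chr1:19764980-19765367 the control libraries held 1.34, 1.15 and 4.16 FPKM and the air-dried libraries 0.569, 0.401 and 0 (adjusted p = 0.1108). At chr8:5376142-5377214 they held 1.66, 1.71 and 1.05 against 0.610, 0.812 and 0.579 FPKM (adjusted p = 0.07499).

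The strand was unassigned for 235 members, while 174 lay on the plus and 159 on the minus strand. No annotated locus had an unassigned strand, and all 235 unstranded members had a single transcript. They were shorter than the stranded members, with a median span of 416 against 968 bases, and lower, with a median mean level of 2.97 against 5.50 FPKM. The 19 numbered chromosomes held 511 members, from 12 on chromosome 7 to 51 on chromosome 1. Per 100 tested annotated loci this came to between 1.58 on chromosome 7 and 3.26 on chromosome 11. The other 57 members lay on 52 scaffolds.

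Most members lay outside the spans of annotated loci but within 10000 bases of one. A locus span here covers all transcripts of the locus, assembled ones included. Relative to the nearest annotated locus, tested or not, 91 members (16.0%) overlapped its span, 156 (27.5%) lay up to 500 bases away, 125 (22.0%) over 500 to 2000 bases, 155 (27.3%) over 2000 to 10000 bases and 20 (3.52%) farther away. A further 21 lay on sequences with no annotated locus. Over the 456 members with a gap, the median gap was 1216 bases and the range 7 to 70097 bases. Of the 91 overlapping members, 83 lay wholly inside the locus span. When only annotated transcripts set the span, 36 members overlapped one. By strand, 18 of the 91 were on the same strand, 31 on the opposite strand and 42 had none assigned. The files give starts and ends but no exons, so exonic and intronic overlap cannot be told apart.

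**Figure D1:**
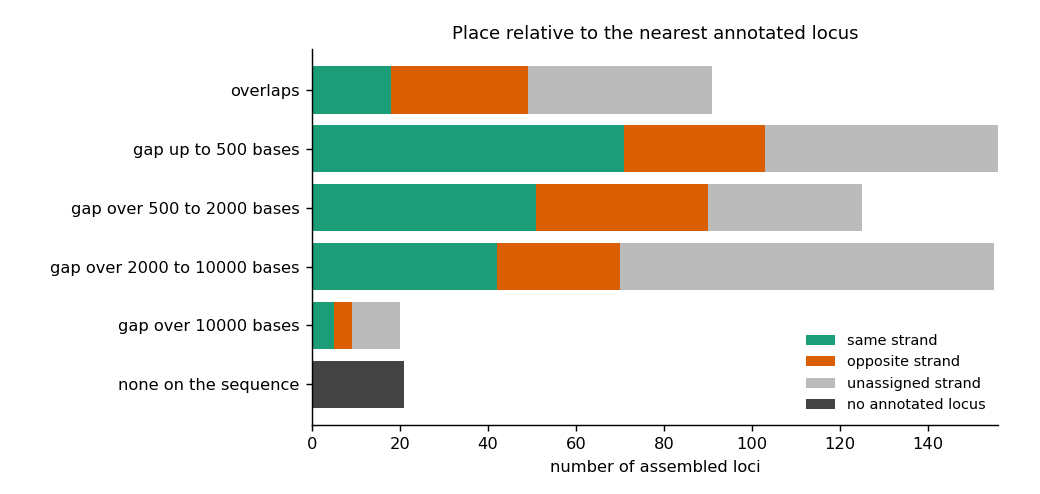
Number of the 568 assembled loci by gap to the nearest annotated locus, split by strand relative to that locus. Bars are counts of loci on a linear axis from 0, and the 2 longest are those up to 500 bases (156 loci) and over 2000 to 10000 bases (155 loci).

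Near the ends of annotated loci, same-strand members were the most frequent kind: 71 of the 156 within 500 bases, against 32 on the opposite strand and 53 unassigned. Upstream of the annotated locus lay 97 of these 156 and downstream of it 59, with 48 of the unassigned upstream and 5 downstream. Over all gaps, same-strand members were about evenly placed, with 90 upstream and 79 downstream, opposite-strand members were more often downstream, with 65 against 38, and unassigned members more often upstream, with 125 against 59. Same-strand members within 500 bases had a median level of 8.34 FPKM, and unassigned ones 2.61 FPKM. Same-strand members overlapping an annotated locus had a median of 11.0 FPKM.

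The 4 members farthest from an annotated locus on a numbered chromosome were all unstranded. The farthest, chr12:4331799-4332224, lay 23715 bases downstream and held 7.89, 4.80 and 8.48 FPKM in control and 8.70, 5.34 and 6.05 FPKM in air-dried libraries. At chr10:5215851-5216361, 22368 bases upstream, levels were 0.746, 1.16 and 1.02 against 0.570, 1.21 and 0.915 FPKM. At both loci the groups overlapped.
The member at chr11:1182690-1183059, with a gap of 20306 bases, ranged from 0.505 to 7.33 FPKM, with 0.505, 3.82 and 5.26 in control and 7.33, 1.77 and 2.57 in air-dried libraries. At chr12:8711286-8712323, with a gap of 18823 bases, control values were 4.12, 4.51 and 4.84 and air-dried values 5.44, 7.77 and 6.08 FPKM. All 3 air-dried libraries were above the controls at this last locus, and none of the 4 was called (adjusted p between 0.1085 and 0.9158).

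Among the 4 members with the longest spans none was called either. The longest, chr14:7399178-7414238 (15061 bases, 2 transcripts), overlapped an annotated locus on the same strand and held 4.69, 3.61 and 3.96 FPKM in control and 7.60, 2.91 and 1.89 FPKM in air-dried libraries. The next, chr5:11874563-11888440 (13878 bases), held 24.8, 19.4 and 25.99 against 44.5, 28.6 and 39.4 FPKM, with all air-dried libraries above the controls (adjusted p = 0.09227).
The other 2 differed by library more than by group. At chr12:3536673-3547823 the values were 36.6, 6.74 and 28.8 against 0, 31.2 and 13.8 FPKM, and at chr10:3226199-3236303 they were 18.4, 11.6 and 17.3 against 153, 7.06 and 19.4 FPKM.

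For unstranded members the span equals the transcript length, and their values fell on steps. Low FPKM values of unstranded single-transcript loci were whole multiples of the value of 1 fragment, once that value was allowed to depend on the length left after subtracting the library's fragment length. With a mean fragment length fitted to each library, all 175 to 212 values of up to 8 fragments per library came out whole within 0.1. Across the unstranded members, which were among the loci fitted, 666 of 666 such values were whole. Among stranded single-transcript members, not used in the fit and taken with their span as length, 23 of 155 were (14.8%). The fitted normalising totals were, in units of 1e6 fragments, 14.46, 13.73 and 14.5 in control replicates 1 to 3 and 14.27, 13.16 and 14.49 in the air-dried ones. Mean fragment lengths were 234, 199 and 240 bases in control and 266, 199 and 210 bases in air-dried libraries, so air-dried replicate 1 had the longest.

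The value of a single fragment therefore differed between libraries at short loci. At 300 bases it was 1.03, 0.705 and 1.12 FPKM in the controls and 1.95, 0.738 and 0.735 FPKM in the air-dried libraries. At 500 bases it lay between 0.237 and 0.298 FPKM, and at 1000 bases between 0.0873 and 0.0953 FPKM. A single fragment thus sufficed for 1 FPKM at 300 bases in air-dried replicate 1 and in control replicates 1 and 3. At 325 bases it did so in air-dried replicate 1 alone, with 1.167 FPKM.

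**Figure D2:**
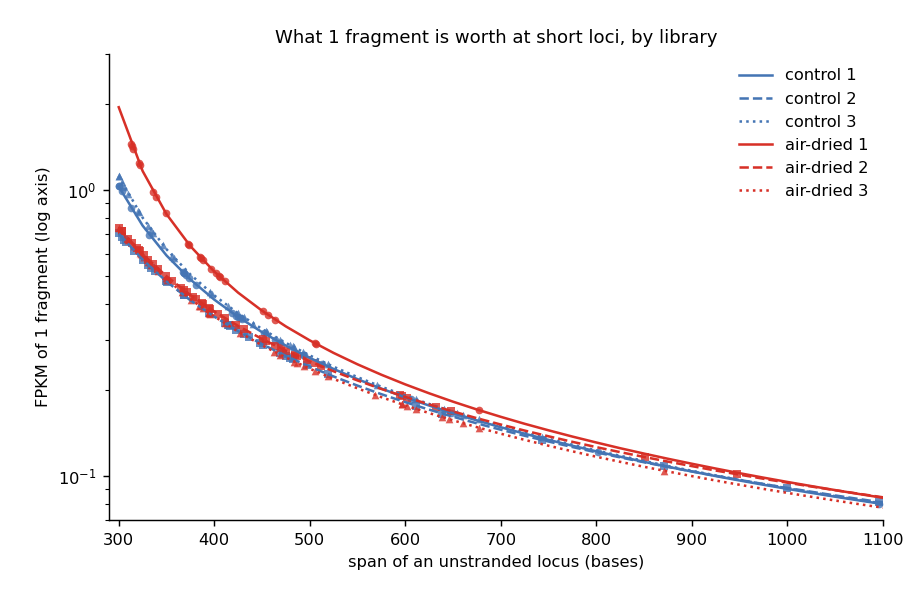
FPKM of 1 fragment (log axis) against span in bases, for unstranded loci, with a fitted line for each library and points for observed values of 1 fragment. The line of air-dried replicate 1 lies above the others at short spans, with 1.95 FPKM at 300 bases, and the 6 lines come together near 1000 bases.

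Read as fragments, unstranded members rested on few molecules. The median member had 9, 8 and 9 fragments in control and 10, 7 and 9 in air-dried libraries, and 52 summed over all 6, with a range of 6 to 1317. Fewer than 30 fragments in all were found at 60 of the 235 members, and 100 or more at 71. Between 26 and 34 members per library reached 1 FPKM from under 5 fragments. Summed over the 235 members, fragments per 1e6 of the normalising total were 316, 318 and 312 in control and 352, 316 and 312 in air-dried libraries. Air-dried replicate 1 was the highest, and the other air-dried libraries lay at the level of the controls. When the fragments were re-expressed with an effective length shared by all libraries, the excess of air-dried replicate 1 over the other air-dried libraries at these members was 0.188 in place of 0.537 (log2), and 0.198 in place of 0.881 for spans of 300 to 400 bases. The 333 stranded members were not re-expressed. Their excess as deposited was 0.406 in all, 2.18 at 300 to 400 bases and 1.18 at over 400 to 500 bases.

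Air-dried and control leaves were compared on log2(FPKM + 1) with limma's moderated test over all 22729 loci at 1 FPKM in 3 libraries, with Benjamini-Hochberg adjustment over them and a call at 0.05. In air-dried leaves 17 members were called higher (2.99%, with 7.28% of all tested loci called higher) and 10 lower (1.76%, with 2.81% of all tested loci). In either direction 27 members (4.75%) were called, with 10.1% called over all tested loci. A change of at least 2-fold was called higher at 11 members (1.94%; background 2.18%) and lower at 7 (1.23%; background 0.295%). Here and in later counts, 2-fold means a change of at least 1 on the log2 scale tested. At low levels this takes more than a doubling of FPKM. The called member at chr5:4161900, for instance, rose 2.49-fold in mean FPKM with a change of 0.72, and was not among the 11. Members were lower than annotated loci as a whole, so these shares and backgrounds stand for unlike changes in FPKM. With other scalings of the libraries the split of 17 higher and 10 lower became 17 and 16 by median-of-ratios, 15 and 19 by quantile and 15 and 20 by upper-quartile normalisation, and no member called as reported changed sign. The shares called over all tested loci with these scalings are not given here, so these splits cannot be read as particular to members. The median change over the 568 members was 0.06 (log2), with 312 positive, and 0.07 over all tested loci. The sign of the members' median turned with each of those scalings. The median over all tested loci was then 0.0035 by median-of-ratios, -0.0486 by quantile and -0.045 by upper-quartile normalisation. Without air-dried replicate 1 the members' median was -0.11, with 242 positive, and that over all tested loci 0.038. The groups did not overlap, air-dried above, at 54 members (9.51%; background 22.6%), and air-dried below at 38 (6.69%; background 10.3%).

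Replicates varied more at members than at annotated loci as a whole. The median within-group SD of log2(FPKM + 1) was 0.336 in control and 0.485 in air-dried libraries for members, and 0.116 and 0.135 for annotated loci. Annotated loci of 300 to 400 bases had SDs of 0.508 and 0.774, close to the 0.495 and 0.791 of members of that span. At longer spans members varied more. Over 500 to 1000 bases they had 0.318 and 0.395, against 0.229 and 0.255 at annotated loci. Over 1000 to 2000 bases these were 0.291 and 0.363 against 0.148 and 0.163, and over 2000 bases 0.192 and 0.274 against 0.105 and 0.125. Of the 26 members averaging over 100 FPKM none was called, with SDs of 0.582 and 1.43, while 15.5% of annotated loci at that level were called, with SDs of 0.109 and 0.110. At 20 to 100 FPKM 3 of 65 members (4.62%) and 12.9% of annotated loci were called, with member SDs of 0.414 and 0.791. At 2 to 5 FPKM, 13 of 190 members (6.84%) and 8.17% of annotated loci were called. Under 2 FPKM only 1 of 127 members (0.787%) was called against 7.21% of annotated loci, with member SDs of 0.321 and 0.469. An unadjusted p under 0.05 was found for 85 members. A change of at least 2-fold without a call was seen at 45 members, 35 of them higher, and in 30 of the 45 air-dried replicate 1 was the highest of the 6 libraries.

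Leaving out air-dried replicate 1 changed the balance of calls. Then 13 members were called higher (2.29%; background 6.38%) and 31 lower (5.46%; background 3.03%), with 9 and 20 of them at least 2-fold (backgrounds 2.25% and 0.568%). Of the calls with all libraries, 12 of the 17 higher and 7 of the 10 lower remained. Another 24 members were called lower, and at 14 of these the value in air-dried replicate 1 was above every control. Fewer of the 27 calls remained without any other single library. These were 13, 13 and 11 without control replicates 1, 2 and 3, and 13 without either air-dried replicate 2 or 3. With the shared effective length for unstranded members, 25 of the 27 calls remained, and 18 members were called higher (background 7.29%) and 13 lower (background 2.82%).

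**Figure D3:**
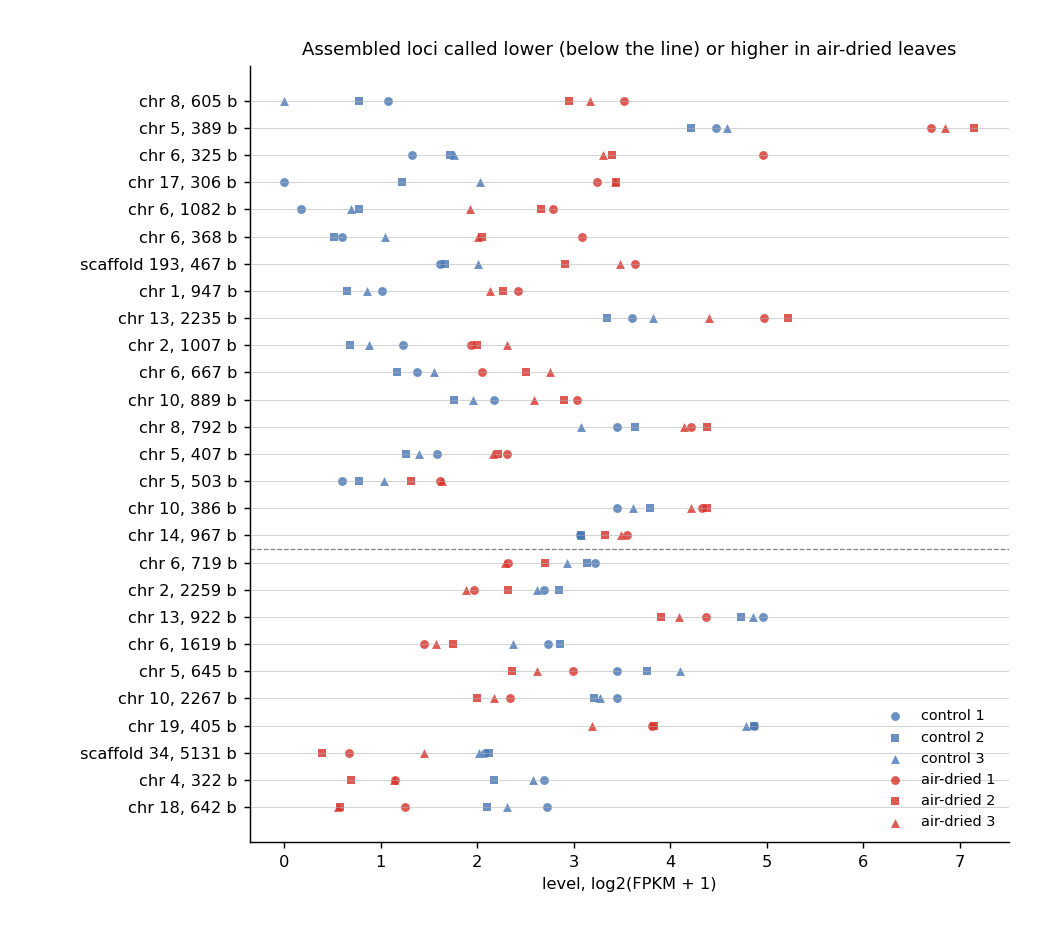
Levels in each of the 6 libraries, as log2(FPKM + 1), at the 27 called members, 17 higher and 10 lower, with colour for group. Every member shown has its 3 air-dried points entirely on one side of its 3 control points.

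The largest rise was at XLOC_036318 (chr8:9284125-9284729, 605 bases, unstranded), 3514 bases downstream of an annotated locus. Its FPKM was 1.12, 0.716 and 0 in control replicates 1 to 3 and 10.5, 6.72 and 8.03 in air-dried replicates 1 to 3, which are 6, 4 and 0 against 51, 36 and 46 fragments. The lowest air-dried library was several times above the highest control. Mean levels were 0.610 ± 0.565 and 8.42 ± 1.93 FPKM (SD, n = 3 each), and the change was 2.60 ± 0.31 (log2, SE; limma adjusted p = 0.005385, and 0.01485 without air-dried replicate 1).

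The second was XLOC_029911 (chr5:21729644-21730032, 389 bases, unstranded), which lay inside an annotated minus-strand locus at chr5:21716065-21739248. It held 21.3, 17.6 and 23.0 FPKM in control and 103, 141 and 114 FPKM in air-dried libraries, from 48, 46 and 50 against 183, 354 and 297 fragments. The groups were far apart and this was the best covered of the called unstranded members that rose. The change was 2.47 ± 0.15 (limma adjusted p = 0.0004666). The annotated locus around it held 2562, 2678 and 2709 FPKM in control and 1899, 2266 and 2080 FPKM in air-dried libraries, lower in all 3 air-dried libraries but not called (adjusted p = 0.1756).

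At each of 2 further unstranded members the change was 2.29. At chr6:11721160-11721484 (325 bases, 6809 bases upstream of an annotated locus) FPKM was 1.51, 2.29 and 2.40 in control and 30.3, 9.56 and 8.84 in air-dried libraries, from 2, 4 and 3 against 26, 16 and 15 fragments (adjusted p = 0.03198). Air-dried replicate 1 was about 3 times the other air-dried libraries, and without it the change was 1.75 (limma adjusted p = 0.004676). Without control replicate 1 the change was 2.15 and was not called (limma adjusted p = 0.1155). At chr17:1600392-1600697 (306 bases), inside an annotated locus, FPKM was 0, 1.34 and 3.07 against 8.49, 9.80 and 9.77, from 0, 2 and 3 against 5, 14 and 14 fragments (adjusted p = 0.03877). This call was lost without air-dried replicate 1 (adjusted p = 0.0681) and with the shared effective length (0.07082).

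At chr6:1056792-1057873 (1082 bases, minus strand, 878 bases upstream of an annotated locus on the same strand) FPKM was 0.130, 0.710 and 0.619 in control and 5.92, 5.34 and 2.80 in air-dried libraries. All controls were under 1 FPKM and all air-dried libraries above it, and the change was 1.91 ± 0.28 (adjusted p = 0.01143). This is the member that passed the level limit through the air-dried group alone. Its separation at 1 FPKM therefore came with the choice and is no support for the rise. Its annotated neighbour at chr6:1054036-1055913 rose as well, from 10.7, 10.3 and 11.8 to 37.3, 30.9 and 33.6 FPKM (adjusted p = 0.0004774).

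Unstranded members on chromosome 6 and a scaffold rose from low levels. At chr6:23352823-23353190 (368 bases, 865 bases upstream of an annotated locus) FPKM was 0.513, 0.429 and 1.07 against 7.47, 3.13 and 3.04, from 1, 1 and 2 against 11, 7 and 7 fragments (change 1.66, adjusted p = 0.03048). At scaffold_193:35109-35575 (467 bases) FPKM was 2.07, 2.17 and 3.03 against 11.4, 6.50 and 10.2, from 7, 8 and 10 against 33, 23 and 38 fragments (change 1.58, adjusted p = 0.009305). In both the air-dried libraries lay above every control.

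Stranded members, 3 in number, completed the 10 largest rises. At chr1:40731804-40732750 (947 bases), 305 bases upstream of an annotated locus on the same strand, FPKM was 1.02, 0.576 and 0.819 against 4.37, 3.83 and 3.37 (change 1.43 ± 0.14, adjusted p = 0.002636). At chr13:3731600-3733834 (2235 bases, 4 transcripts), 169 bases downstream of an annotated locus on the opposite strand, it was 11.2, 9.17 and 13.15 against 30.4, 36.4 and 20.1 (change 1.27 ± 0.23, adjusted p = 0.02505, and 0.0554 without air-dried replicate 1). At chr2:1071958-1072964 (1007 bases), 1648 bases upstream on the same strand, it was 1.34, 0.602 and 0.837 against 2.82, 2.99 and 3.94 (change 1.15 ± 0.18, adjusted p = 0.01507). The air-dried libraries were above the controls in each, with the narrowest spread among them at the first.

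The other 7 rises had changes of 0.38 to 1.07 and adjusted p between 0.009865 and 0.04604. Of these, 2 at chr5:4161900-4162402 and chr5:4162921-4163327 were neighbours and both unstranded, with 2, 3 and 4 against 7, 6 and 9 fragments and 5, 4 and 4 against 8, 10 and 10 fragments. Members at most 5000 bases apart formed 44 runs holding 95 members, and this was the only run with more than 1 called member. At chr10:10326069-10326454 the FPKM of 9.95, 12.8 and 11.2 against 19.1, 19.8 and 17.6 did not overlap, but the fragments behind them did, with 22, 33 and 24 against 33, 49 and 45, and with the shared effective length it was not called (adjusted p = 0.1264).

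The largest fall was at XLOC_018264 (chr18:14602812-14603453, 642 bases, plus strand), 1071 bases downstream of an annotated locus on the opposite strand. Its FPKM was 5.62, 3.29 and 3.96 in control and 1.38, 0.495 and 0.477 in air-dried libraries. Every control was more than 2-fold above every air-dried library. Mean levels were 4.29 ± 1.20 and 0.785 ± 0.517 FPKM (SD, n = 3 each), and the change was -1.58 ± 0.25 (log2, SE; limma adjusted p = 0.0153, and 0.008447 without air-dried replicate 1).

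The next, XLOC_027298 (chr4:22483752-22484073, 322 bases, unstranded), lay 727 bases upstream of an annotated locus. It fell from 5.45, 3.51 and 4.96 to 1.22, 0.612 and 1.21 FPKM (change -1.48 ± 0.20, adjusted p = 0.008124). The groups were separate, but the values stood for only 7, 6 and 6 fragments in control and 1, 1 and 2 in air-dried libraries, the lowest total of the 14 called unstranded members at 23.

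Better covered falls were found at other unstranded members. At chr10:15366772-15369038 (2267 bases, the longest unstranded member, 8111 bases upstream of an annotated locus) FPKM was 9.92, 8.26 and 8.66 against 4.06, 3.01 and 3.52, from 292, 235 and 255 against 116, 82 and 105 fragments (change -1.14 ± 0.12, adjusted p = 0.003468). The member at chr19:13983046-13983450 (405 bases) lay inside the long span of an annotated locus at chr19:13684847-14037894. Its FPKM was 28.2, 28.2 and 26.6 against 13.01, 13.2 and 8.11. These came from 70, 80 and 64 against 26, 36 and 23 fragments (change -1.23 ± 0.18, limma adjusted p = 0.01171). In both, controls differed little among themselves and every air-dried library was under 0.5 of the control mean.

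Falls next to or across an annotated locus that fell too were seen at 2 members. At chr5:12643473-12644117 (645 bases, minus strand), overlapping an annotated plus-strand locus at chr5:12641073-12644116, FPKM was 9.91, 12.6 and 16.1 against 6.97, 4.15 and 5.13 (change -1.11 ± 0.22, adjusted p = 0.03198). The annotated locus held 25.3, 19.7 and 19.99 against 9.29, 9.90 and 11.02 FPKM (adjusted p = 0.00517). Because the sources used here do not say whether the kit kept strand, reads of the overlapping pair cannot be told apart with certainty. At chr13:12998395-12999316 (922 bases, unstranded), 85 bases upstream of an annotated locus at chr13:12999402-13000859, FPKM was 30.2, 25.5 and 27.9 against 19.8, 13.9 and 16.1, from 301, 254 and 277 against 185, 133 and 166 fragments (change -0.73 ± 0.14, adjusted p = 0.0265). The annotated locus held 40.6, 39.3 and 35.5 against 21.8, 22.6 and 22.4 FPKM (adjusted p = 0.002428).

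The remaining 4 falls were at stranded members. At chr6:20236796-20238414 (1619 bases) FPKM was 5.66, 6.23 and 4.16 against 1.72, 2.37 and 1.97 (change -1.06, adjusted p = 0.01213). At scaffold_34:6998-12128 (5131 bases), 70097 bases upstream of the nearest annotated locus, it was 3.24, 3.36 and 3.04 against 0.595, 0.315 and 1.73 (change -1.24, adjusted p = 0.04298). All air-dried values were below the controls at each of these.
At chr2:17795981-17798239 FPKM was 5.46, 6.20 and 5.13 against 2.91, 3.99 and 2.68 (change -0.66, adjusted p = 0.03925). At chr6:16575474-16576192 it was 8.31, 7.79 and 6.64 against 3.99, 5.51 and 3.88 (change -0.66, adjusted p = 0.04256). Without air-dried replicate 1 the last member, the one on chromosome 2 and the one on scaffold_34 were no longer called (adjusted p of 0.08413, 0.07995 and 0.08548).

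**Figure D4:**
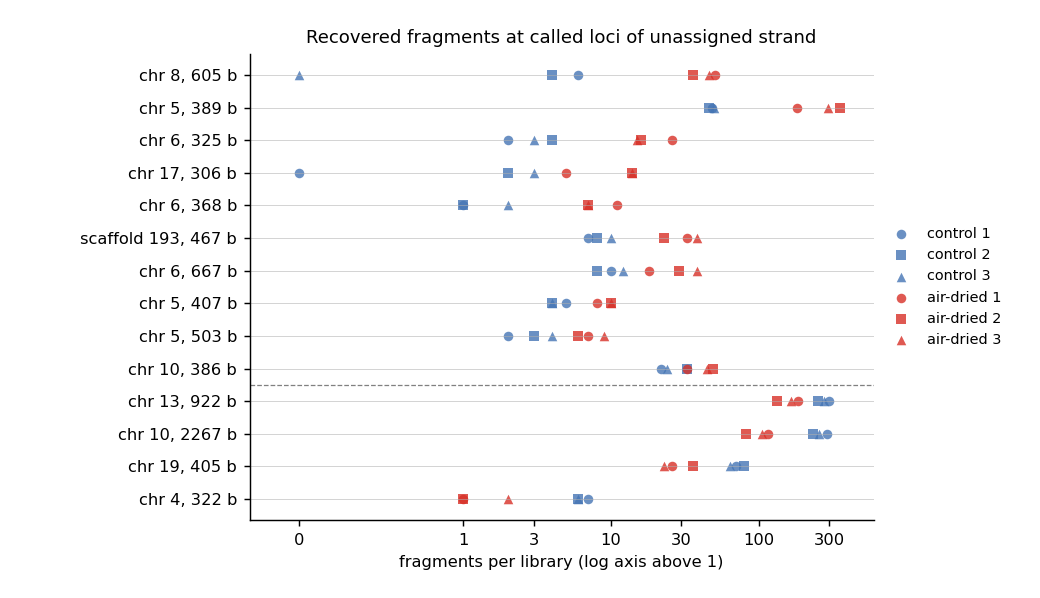
Fragments recovered in each library (log axis above 1, with 0 at the left) at the 14 called unstranded members, 10 higher above the dashed line and 4 lower below it. Totals over the 6 libraries run from 23 to 1316, and only 2 members total under 30.

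Of the 24 members called lower only after leaving out air-dried replicate 1, 19 had that library within or above the control range, and 14 of these above every control. Both examples given here are among the 14 and were chosen after their values were seen. At chr6:21641122-21642065 FPKM was 159, 122 and 239 in control and 950, 48.8 and 52.3 in air-dried libraries. At scaffold_117:20307-28288 it was 50.02, 33.4 and 53.4 against 72.0, 7.92 and 13.5. Air-dried replicate 1 was the highest library at both, while the other air-dried libraries were the lowest. With it the adjusted p was 0.9095 and 0.4211, and without it 0.02536 and 0.01672.

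The members with the highest levels varied most between libraries. At chr17:783549-783896 (348 bases, minus strand) FPKM was 1839, 3948 and 1408 in control and 33895, 7514 and 3591 in air-dried libraries. At scaffold_496:4888-5642 it was 1221, 1911 and 1213 against 5975, 1968 and 2328, and at chr12:3984094-3984519 it was 141, 220 and 410 against 1270, 692 and 470. In the latter pair all air-dried libraries were above the controls, and in the first they overlapped.
The other 3 of the 6 highest were chr1:17002564-17002932 with 348, 154 and 302 against 1030, 206 and 243 FPKM, scaffold_1410:2-364 with 143, 41.7 and 215 against 1593.5, 65.8 and 52.6, and chr1:14614508-14617072 with 200.8, 58.4 and 163 against 1549.7, 65.6 and 61.7. Air-dried replicate 1 was the highest library at all 6, and none was called (adjusted p between 0.0978 and 0.8347).

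Calls by place were few in each class. Members overlapping an annotated locus had 2 higher and 2 lower calls, those up to 500 bases away 4 and 1, those over 500 to 2000 bases 3 and 2, those over 2000 to 10000 bases 8 and 4, and those farther away 0 and 1. Upstream of the annotated locus 12 of 253 members were called higher and 5 lower, and downstream 3 of 203 were called in each direction, with 7.28% called higher and 2.81% lower over all tested loci. No difference between classes was tested.

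Each member was also set against the nearest annotated locus that was tested, which existed for 531 members, in a fit on the per-library difference between the 2 loci. The annotated neighbour was usually the higher: the member was above it at 183 pairs, and the median log2 difference in level was -0.957. By the signed difference, 10 members were called above their neighbour's change (1.88%, with 4.72% over all 22409 loci fitted). Another 16 were called below it (3.01%, with 4.50% over all), which a larger fall as well as a smaller rise can give. Across the 531 pairs the changes of the 2 loci correlated weakly, with Pearson r = 0.0921 and Spearman rho = 0.0978, and had the same sign in 280. Up to 500 bases apart (127 pairs) r was 0.224 and rho 0.344, and for overlapping pairs (85) r was -0.143. Over 500 to 2000 bases apart (92 pairs) r was 0.217 and rho 0.149. It was 0.103 over 2000 to 10000 bases (156 pairs) and -0.0488 farther apart (71 pairs). Pairs share the 6 libraries and some share a neighbour, 477 being distinct, so these are descriptions.

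**Figure D5:**
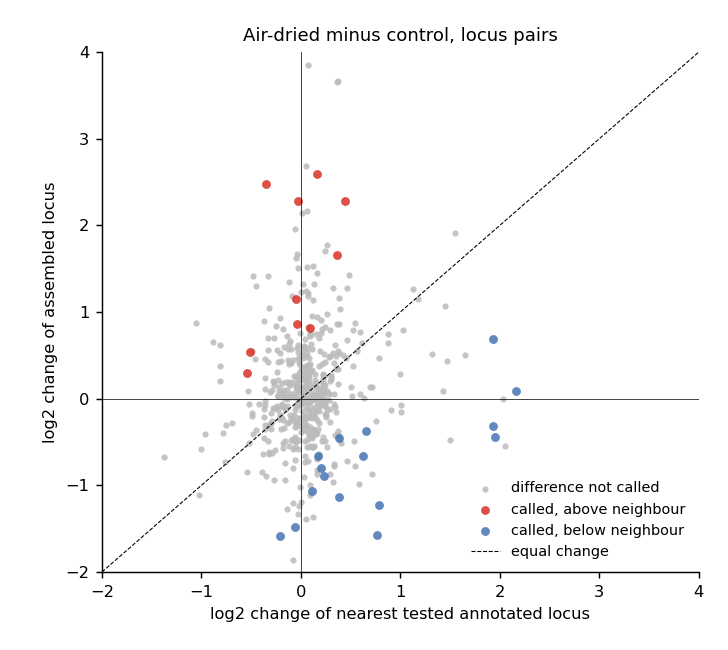
Log2 change (air-dried minus control) of each assembled locus against that of its nearest tested annotated locus, for 531 pairs, with the 10 called above and the 16 called below their neighbour in colour and the dashed line at equal change. Points form an upright cloud, with assembled loci spread more widely than their neighbours.

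The 3 largest positive differences were all at members that were called higher by themselves. XLOC_029911 exceeded the locus around it by 2.83 ± 0.15 (log2, SE; adjusted p = 0.0003932). XLOC_036318 exceeded its neighbour at chr8:9288244-9289934, which held 3.40, 1.86 and 2.29 against 3.26, 2.27 and 3.15 FPKM, by 2.44 ± 0.26 (adjusted p = 0.004216). The member at chr17:1600392-1600697 exceeded the locus at chr17:1581731-1608339, with 5.76, 6.71 and 5.21 against 7.41, 4.86 and 5.13 FPKM, by 2.32 ± 0.54 (adjusted p = 0.04936). In the last 2 cases the groups of the annotated locus overlapped.

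The 3 largest negative differences came with annotated neighbours whose mean air-dried level was higher. Near chr1:27269152-27269920, with 2.58, 1.28 and 2.61 against 2.505, 0.931 and 0.740 FPKM, the annotated locus at chr1:27277019-27279325 rose from 21.2, 19.9 and 18.1 to 73.5, 83.0 and 81.5 FPKM (difference -2.39 ± 0.36, adjusted p = 0.01373). Near chr10:10327872-10328308, with 2.03, 0.916 and 1.74 against 1.63, 0.955 and 0.606 FPKM, the one at chr10:10321042-10321894 rose from 0.510, 0.403 and 0.724 to 6.17, 4.50 and 4.17 FPKM (difference -2.25 ± 0.17, adjusted p = 0.001187). Both members had overlapping groups.
At chr9:11097291-11099482 the member held 5.67, 2.79 and 3.46 against 1.74, 0 and 0.553 FPKM (adjusted p = 0.06531 alone) and differed from its neighbour by -2.34 ± 0.44 (adjusted p = 0.02659). That neighbour, chr9:11094458-11097017, held 0.635, 0.462 and 1.18 against 2.52, 2.39 and 1.15 FPKM and was not called by itself (adjusted p = 0.1188).

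Of the 26 called members with a tested neighbour, 5 had a neighbour called in the same direction and 0 in the opposite direction. Over all 531 pairs, 42 neighbours were called. Besides the 3 pairs above on chr6:1056792, chr5:12643473 and chr13:12998395, these were chr6:22539542-22540208 and chr10:10326069-10326454. The former held 1.59, 1.24 and 1.94 against 3.14, 4.70 and 5.73 FPKM, and its neighbour at chr6:22535019-22536673 24.6, 24.8 and 24.4 against 70.2, 67.7 and 69.5 FPKM. The latter rose less than its neighbour at chr10:10321042-10321894 (difference -1.25, adjusted p = 0.01379).

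Where a member had several transcripts, the leading one was unstable. The same transcript had the highest FPKM in all 6 libraries at 32 of 107 such members, while it differed among the controls at 57 and among the air-dried libraries at 55. At 2 members it was the same within each group and different between groups. At chr11:17035309-17036418 the longer transcript held 196, 112 and 154 FPKM in control and 139, 141 and 131 in air-dried libraries, and the shorter, which shares its start, 75.1, 70.1 and 85.1 against 191, 152 and 197. The summed level was not called (adjusted p = 0.1274), and the shift between transcripts was not tested. At the other, chr15:5945326-5946434, the longer transcript held 2.27, 2.16 and 1.726 against 0.0497, 0.00211 and 2.09 FPKM and the shorter 0.319, 0.00880 and 1.722 against 2.25, 3.92 and 2.15 FPKM. In control replicate 3 and air-dried replicate 3 both transcripts of this locus were at nearly the same level.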

How the data were processed

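The deposited tables list FPKM per transcript in each library, with locus, position, strand and status, per the file headers. The submitters' processing notes name FastQC, TopHat and Cufflinks without versions. No source used here gives the authors' genome build or annotation.

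FPKM were summed per locus and tested as log2(FPKM + 1) of the deposited values at the 22729 loci reaching 1 FPKM in 3 or more of 6 libraries, using limma 3.58.1 (R 4.3.3; moderated two-sided test with mean-variance trend, no covariates) with Benjamini-Hochberg adjustment over all tested loci. Python 3.11.15 with pandas 2.3.3 did the rest. The neighbour fit covered 22409 loci. The scripts were tested on simulated data.

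Values of unstranded single-transcript loci spanning 300 to 3000 bases were fitted, per library, as whole fragments over an effective length (span less fragment length, with a fitted mean, spread and total), for values up to 8 fragments and a tolerance of 0.1. The count of raw reads is unknown, and the totals above are the fitted ones.

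The members, rules and lists were chosen with earlier results of these data known. Loci given with values were the 10 largest called rises and falls, the 6 highest, the 4 farthest, the 4 longest, the 3 most above and the 3 most below their neighbour, and the loci next to each limit, which are given by span or level. Others are said to be chosen afterwards, and the called neighbours and group-only members are given as complete sets. No sequence was used here.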

Additional observations from a re-analysis of the deposited data

How the results depend on the processing

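No called member changed direction under any setting tried. Where this section gives no share over all tested loci, a count cannot be told from a general shift in calls. Against 27 called members, a filter of 5 FPKM gave 17 and estimated library weights 119 (45 higher, 74 lower). The filter also left fewer members, 159 with a positive and 96 with a negative change. Of the 27 calls, 16 passed it and all 16 remained. Leaving out each library gave 13 to 44, the highest without air-dried replicate 1 (13 higher, 31 lower) and 13 without control replicate 1. The shared effective length without air-dried replicate 1, added after seeing the data, gave 45. Of the 18 at least 2-fold, a pseudocount of 5 left 5, the filter 9 and spans of at least 500 bases 11, weights gave 45, leaving out libraries 10 to 29, and the shared length without air-dried replicate 1 gave 30. Against 26 differing from their neighbour, weights gave 60, spans of at least 500 bases 15 and leaving out libraries 11 to 33. The correlation with the neighbour's change was 0.0494 with a pseudocount of 0.1 and 0.0525 to 0.137 without a library. The median change of members, 0.06, was negative without air-dried replicate 1 (-0.11, all tested loci 0.04) and with library weights (-0.08, all tested 0.06). It was also negative after quantile (-0.0499, all tested -0.0486), upper-quartile (-0.0423, all tested -0.045) and median-of-ratios scaling (-0.0024, all tested 0.0035). Members overlapping an annotated locus were 36 when only annotated transcripts set its span, and with tested annotated loci alone 71 lay over 10000 bases away and 37 had none on the sequence. The difference from the neighbour reversed at chr9:9426648-9427618 with no filter (0.0845, adjusted p = 0.9226) and at chr10:10326069-10326454 with the 5 FPKM filter (0.78, adjusted p = 0.01078), where the filter changes which locus is the neighbour.

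Deviations from the group mean over all tested loci correlated at 0.0930, 0.187 and -0.124 between same-numbered control and air-dried libraries. Between differently numbered ones the values ran from -0.232 to 0.161. The labels do not say that a shared number marks a shared plant or culture, so libraries with the same number were not taken as pairs. With a replicate block 20 members were called, 14 at least 2-fold, and 21 differed from their neighbour, and 13 of the 27 calls remained. The cause of these shifts was not tested. Library weights ran from 0.290 for air-dried replicate 1 to 7.50 for air-dried replicate 3.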
